A study of Rattus norvegicus with 2 samples.

Results

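The glycolysis genes described here were 10 genes that encode the glucose transporter and enzymes from glucose to lactate, namely Slc2a1, Hk1, Hk2, Pfkp, Aldoa, Tpi1, Gapdh, Pgk1, Eno1 and Ldha. They were chosen by symbol, and all 10 were among the 32623 genes of the deposited table. UMI counts, which count single captured RNA molecules, came from single-cell RNA sequencing of rat carotid arteries in 2 libraries, 1 per group. The control group was the untreated left arteries and the case group the right arteries with carotid balloon injury, in which an inflated catheter strips the inner wall. Both came from the same 2 male Sprague-Dawley (SD) rats, pooled in each library, so no value of a single rat was available. The methods describe the rats used as 8 weeks old. Arteries were collected 28 days after the injury, and the labels give an age of 12 weeks. Both groups were dissociated with trypsin and collagenase.

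Glycolysis converts glucose to pyruvate in the cytosol and yields ATP without oxygen. Slc2a1 (GLUT1) brings glucose into the cell, and the hexokinases Hk1 and Hk2 trap it as glucose 6-phosphate, which keeps it in the cell. Hk2 is the inducible isoform of muscle and proliferating cells, Hk1 the widely used one, and several of these genes are known targets of hypoxia-inducible factors. Lactate dehydrogenase A (Ldha) turns pyruvate into lactate.

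After filtering, 2229 control cells with a median of 10919 UMIs and 4890 case cells with a median of 5174 UMIs were kept. Cells were assigned to classes by marker genes that contain no glycolysis gene. VSMC-like cells numbered 1031 in the control and 2449 in the case group, fibroblast-like cells 805 and 1593, endothelial-like cells (ECs) 56 and 214, and macrophage-like cells 54 and 132. Both-marker cells, which carry VSMC and fibroblast genes together, numbered 219 and 267, and Schwann-like cells 18 and 48. The VSMC and fibroblast classes are ranges of 1 score, and 39 control and 107 case VSMC-like cells lay within 0.05 of its limit. The classes were made from these markers, so their marker levels describe the gates and are no check of them. Control VSMC-like cells had a median of 319 VSMC and 37 fibroblast marker UMIs, and control fibroblast-like cells 9 and 408. No VSMC-like or fibroblast-like median for endothelial or macrophage markers was above 0. ECs had a median of 10 VSMC and 17 endothelial marker UMIs in the control and 5 and 10.5 in the case group. No label ties the barcodes to a group: their suffix was assigned by matching the number of barcodes to the cell numbers in the methods, and every direction between case and control rests on this. A total of 21 barcode sequences occurred in both libraries. Levels are given as CPM, for which the UMIs of a gene were summed over a class, divided by all UMIs of that class and multiplied by 1000000. With 1 library per group there was no replicate error and no test. Intervals (95%) describe counting error only, and a member was called past the fold at a ratio of 1.5 or more. A difference between groups cannot be told apart from a difference between the 2 libraries.

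The promoter sequences of 4 members are shown because Hk2 and Slc2a1 had higher levels in case fibroblast-like cells while Gapdh and Ldha had lower levels. Neither Gapdh nor Ldha was past the fold there, and a few cells carried the Ldha difference. Hk1, which was lower by the fold there, is not shown. Each runs from 250 bases before to 50 bases after the RefSeq start of the gene (assembly GRCr8, 5′ to 3′ on the strand of the gene). Capitals mark ACGTG, the form with A of the hypoxia response element core, or its reverse complement CACGT. These overlap where CACGTG occurs. The form with G, GCGTG, was not searched, so a window without a match can still hold it.
Hk2, chr4:116841226-116841525 (minus strand): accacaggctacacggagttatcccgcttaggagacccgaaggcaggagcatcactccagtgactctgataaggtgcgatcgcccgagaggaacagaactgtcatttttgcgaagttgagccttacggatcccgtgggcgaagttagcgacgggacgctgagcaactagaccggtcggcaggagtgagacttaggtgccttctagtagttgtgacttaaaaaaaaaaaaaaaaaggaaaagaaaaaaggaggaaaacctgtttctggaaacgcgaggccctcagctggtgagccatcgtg
Slc2a1, chr5:138002272-138002571 (plus strand): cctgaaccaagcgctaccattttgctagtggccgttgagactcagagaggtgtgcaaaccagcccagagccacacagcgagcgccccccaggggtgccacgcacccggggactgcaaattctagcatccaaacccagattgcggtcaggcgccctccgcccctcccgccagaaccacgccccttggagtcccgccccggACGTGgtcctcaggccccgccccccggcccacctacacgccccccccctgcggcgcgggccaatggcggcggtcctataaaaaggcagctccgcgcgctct
Gapdh, chr4:159652418-159652717 (minus strand): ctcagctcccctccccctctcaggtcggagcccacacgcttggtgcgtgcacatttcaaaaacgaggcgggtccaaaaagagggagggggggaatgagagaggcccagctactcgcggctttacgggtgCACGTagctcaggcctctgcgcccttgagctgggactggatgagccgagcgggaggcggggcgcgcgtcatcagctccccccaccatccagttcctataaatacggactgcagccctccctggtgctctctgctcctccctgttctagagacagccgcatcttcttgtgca
Ldha, chr1:106507842-106508141 (plus strand): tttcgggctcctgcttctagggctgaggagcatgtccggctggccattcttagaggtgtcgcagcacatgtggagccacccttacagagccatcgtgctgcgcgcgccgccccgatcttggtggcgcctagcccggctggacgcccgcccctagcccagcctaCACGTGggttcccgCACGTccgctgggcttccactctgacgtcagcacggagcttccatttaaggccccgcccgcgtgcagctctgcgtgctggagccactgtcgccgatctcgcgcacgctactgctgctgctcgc
RefSeq gave 13 such promoters for 9 of the 10 members, with none for Pgk1. The form of the core with A occurred in 6 of the 13, against 19.3% of 33469 promoters of all genes. The Ldha window held 3 matches, starting at -87, -86 and -73 from the start site, a number reached by 1.69% of all promoters. Gapdh had a match at -121 and Slc2a1 a match at -51, and no match was in the windows of Hk2, Tpi1 and Pfkp. Such a match is a run of letters and no proof of binding.

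Glucose uptake was not measured. The RNA of the glucose transporter Slc2a1 was read. Its level was highest in macrophage-like cells, with 187 CPM (151 to 229) in the control and 227 CPM (195 to 263) in the case group. This was 3.71-fold the level of VSMC-like cells in the control and 4.33-fold in the case group. Fibroblast-like cells had 40.9 CPM in the control and 65.7 CPM in the case group, a log2 ratio of 0.68 (0.49 to 0.88). Among fibroblast-like cells of 4000 to 8000 UMIs it was 3.14-fold higher in the case group and among those of 8000 to 16000 UMIs 2.53-fold, while at 2000 to 4000 UMIs the control had the higher level, 80.4 CPM on 12 UMIs against 34.4 CPM on 42 UMIs. With equal weight on these 3 bins the log2 ratio was 0.43, which is not past the fold. VSMC-like cells had 50.5 and 52.4 CPM, a log2 ratio of 0.05 (-0.10 to 0.21), which is within counting error. ECs had 44.5 CPM on 21 UMIs in the control and 68.7 CPM on 79 UMIs in the case group, and the interval of their log2 ratio of 0.63 (-0.08 to 1.40) included 0 and the ratio was -0.26 after thinning each cell to 2000 UMIs. Among ECs, cells with Plvap or Emcn UMIs, genes of capillary and fenestrated endothelium, had 125 CPM (89.2 to 171) of Slc2a1 in the case group against 46.1 CPM (32.6 to 63.3) in the other ECs. In the control group only 7 ECs had those markers. The share of such cells among ECs with at least 2000 UMIs was 7 of 55 in the control and 69 of 205 in the case group, and its part in the EC value was not tested.

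Hexokinase 2 had the largest difference between the groups of all members in range of a comparison, in each of the 6 classes. In fibroblast-like cells its log2 ratio of 1.06 did not differ in size beyond counting error from that of Hk1, -1.05 (-1.47 to -0.64). In Schwann-like cells only 4 members were in range. The Hk2 level in VSMC-like cells was 400.2 CPM (389 to 411) in the control and 921 CPM (905 to 937) in the case group, 2.30-fold higher. In fibroblast-like cells it was 1132 CPM (1110 to 1155) and 2367 CPM (2335 to 2400), 2.09-fold higher. The intervals of the groups did not overlap in either class. In ECs it was 131 and 397 CPM (3.02-fold) and in macrophage-like cells 469 and 939.8 CPM (2.01-fold). With equal weight on the 3 depth bins the macrophage log2 ratio of 1.00 became 0.40, short of the fold, with 2 control cells in the bin of 2000 to 4000 UMIs. Eno1 (0.97), Slc2a1 (0.69) and Gapdh (-0.55) were then larger in size in this class. Fibroblast markers moved in ECs and macrophage-like cells. In ECs 5 of 6 genes in range were higher by the fold and 1 lower, with a summed level of 1383 and 2729 CPM. In macrophage-like cells 3 of 6 were lower, with 2946 and 1609 CPM. Their part in the Hk2 values was not tested. Both-marker cells had 677 and 1279 CPM, and Schwann-like cells 508 and 1055 CPM, the latter on 18 control cells. Control both-marker cells were shallower than case ones, with medians of 2159 and 4387 UMIs and of 8.21% and 5.05% mitochondrial UMIs. After thinning each cell to 2000 UMIs, 61.0% of control and 78.1% of case both-marker cells had an Hk2 UMI. This left out 101 control and 48 case both-marker cells. Over all cells of a class, Hk2 was past the fold and higher in the case group in all 6 classes compared. Fibroblast-like cells had the highest and ECs the lowest level of the 4 main classes in both libraries, and the intervals of macrophage-like and VSMC-like cells between them overlapped.

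Set among all genes, this difference was large in VSMC-like cells, where 5.59% of 6578 genes were higher by the fold and the Hk2 ratio lay at percentile 99.5. In fibroblast-like cells 6.55% of 6259 genes were higher by the fold and Hk2 lay at percentile 98.6. In ECs, where 18.2% of genes passed on fewer UMIs, it lay at percentile 97.4, and in macrophage-like cells (17.1%) at 93.3. The shares of genes higher by the fold were 10.9% in both-marker and 29.6% in Schwann-like cells, where Hk2 lay at percentiles 95.8 and 85.3.

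**Figure D1:**
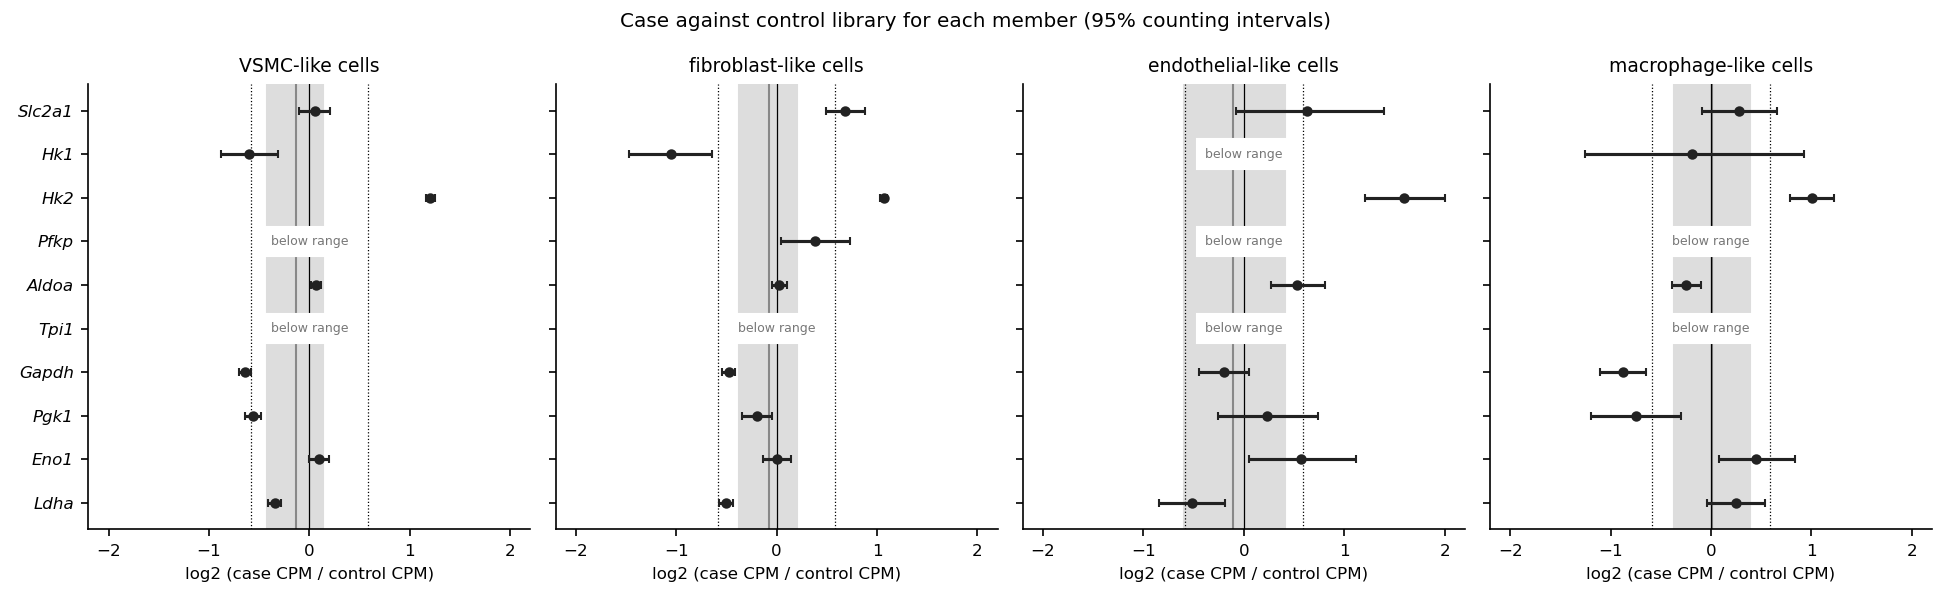
Log2 ratio of the case over the control CPM for each member (points, with 95% counting intervals) in 4 classes. Grey bands give the interquartile range and grey lines the median of all genes compared, dotted lines the 1.5-fold limits; Hk2 lies right of the upper limit in every panel (1.20, 1.06, 1.59 and 1.00), while Gapdh is at -0.64, -0.48, -0.20 and -0.88, with an interval that includes 0 in ECs.

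The other hexokinase, Hk1, differed in the opposite direction in VSMC-like and fibroblast-like cells taken as a whole. It had 19.5 CPM (247 UMIs) in control and 12.9 CPM (182 UMIs) in case VSMC-like cells, a log2 ratio of -0.60 (-0.88 to -0.32). Fibroblast-like cells had 17.5 and 8.47 CPM, a log2 ratio of -1.05 (-1.47 to -0.64). Both differences were past the fold, the VSMC one by a narrow margin and in 7 of 15 other settings. With equal weight on the 3 depth bins the VSMC log2 ratio was -0.28, short of the fold and outside its counting interval. Fibroblast-like cells in the bin from 4000 UMIs had 7.66 and 9.50 CPM, both below the mean of 10 CPM set for a comparison, so no direction was read. The case level was lower in the bins from 2000 UMIs (20.1 and 4.91 CPM, on very few Hk1 UMIs) and 8000 UMIs (13.1 and 8.25 CPM). Of 13 clusters with a ratio, Hk1 was lower by the fold in 7 and higher in the case group in 2. Its interval lay below 0 in 3. Macrophage-like cells had 27.9 and 24.5 CPM, and the interval of their log2 ratio (-1.26 to 0.92) included 0. In ECs Hk1 stood on 11 control and 7 case UMIs, under the 30 UMIs set for a comparison.

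The number of Hk2 UMIs was also read per cell. To compare cells at equal depth, each was thinned to 2000 UMIs at random. The share of VSMC-like cells with an Hk2 UMI was then 49.2% (46.0 to 52.4) in the control and 75.8% (74.1 to 77.6) in the case group, against 89.3% and 92.7% before thinning. In fibroblast-like cells it was 67.8% (64.3 to 71.2) and 87.3% (85.5 to 88.9), and the median number of Hk2 UMIs was 1 and 3. The control VSMC-like cells without an Hk2 UMI after thinning made up 50.8% of the cells, and the case ones 24.2%. In ECs the share was 12.7% (5.27 to 24.5) in the control and 39.5% (32.8 to 46.6) in the case group, the lowest of the 4 main classes in both. All other main classes of the same library had higher shares at the same number of UMIs.

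**Figure D2:**
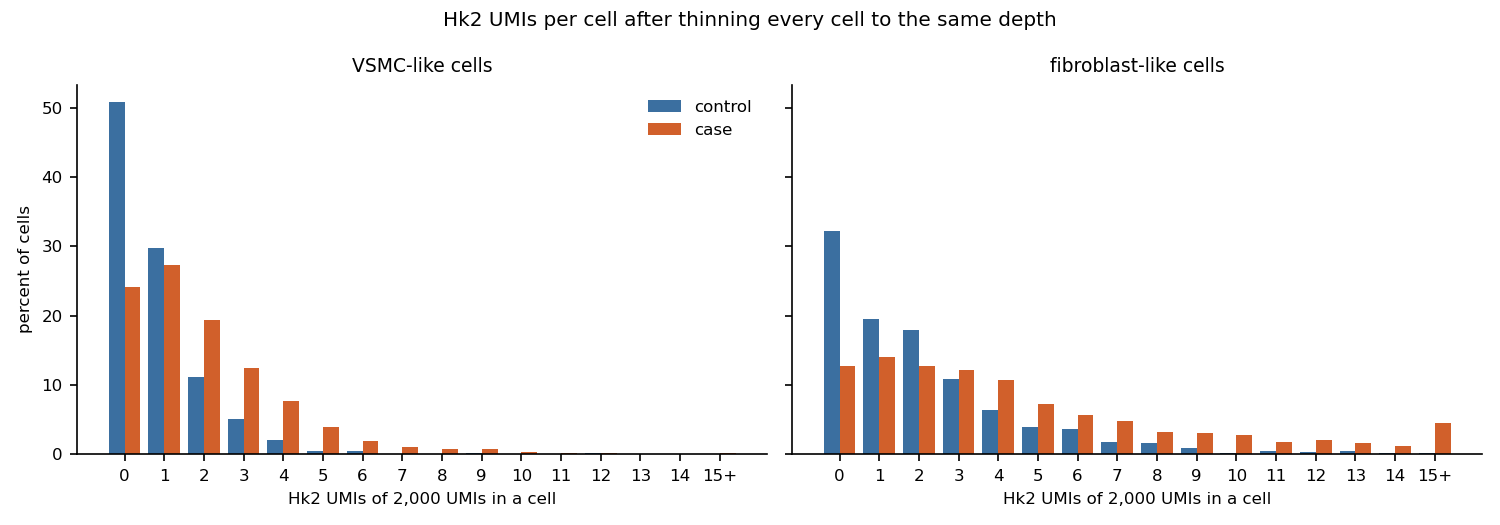
Percent of cells (bars) by the number of Hk2 UMIs among 2000 UMIs drawn from each cell, in VSMC-like and fibroblast-like cells of the control (blue) and case (orange) library; the last bin holds 15 or more. The bar at 0 is at 50.8% and 24.2% in VSMC-like cells and at 32.2% and 12.7% in fibroblast-like cells.

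VSMC-like and fibroblast-like cells of the case group were shallower, and in control VSMC-like cells the Hk2 level was lower in deeper cells. In control VSMC-like cells Hk2 was 880 CPM (727 to 1056) in cells of 2000 to 4000 UMIs, 436 CPM in cells of 4000 to 8000 and 384 CPM in cells of 8000 to 16000. In the case group the same bins had 1183, 905 and 848 CPM. The case group was higher in each of them, by 1.34-fold, 2.07-fold and 2.21-fold. Fibroblast-like cells did not have this order, with 777, 688 and 1117 CPM in the control and 2242, 2476 and 2236 CPM in the case group, so that the folds were 2.89, 3.60 and 2.00. With equal weight on the 3 bins the log2 ratio was 0.79 in VSMC-like and 1.43 in fibroblast-like cells, past the fold in both classes. The VSMC bin of 2000 to 4000 UMIs, at 1.34-fold, was short of the fold on its own.

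**Figure D3:**
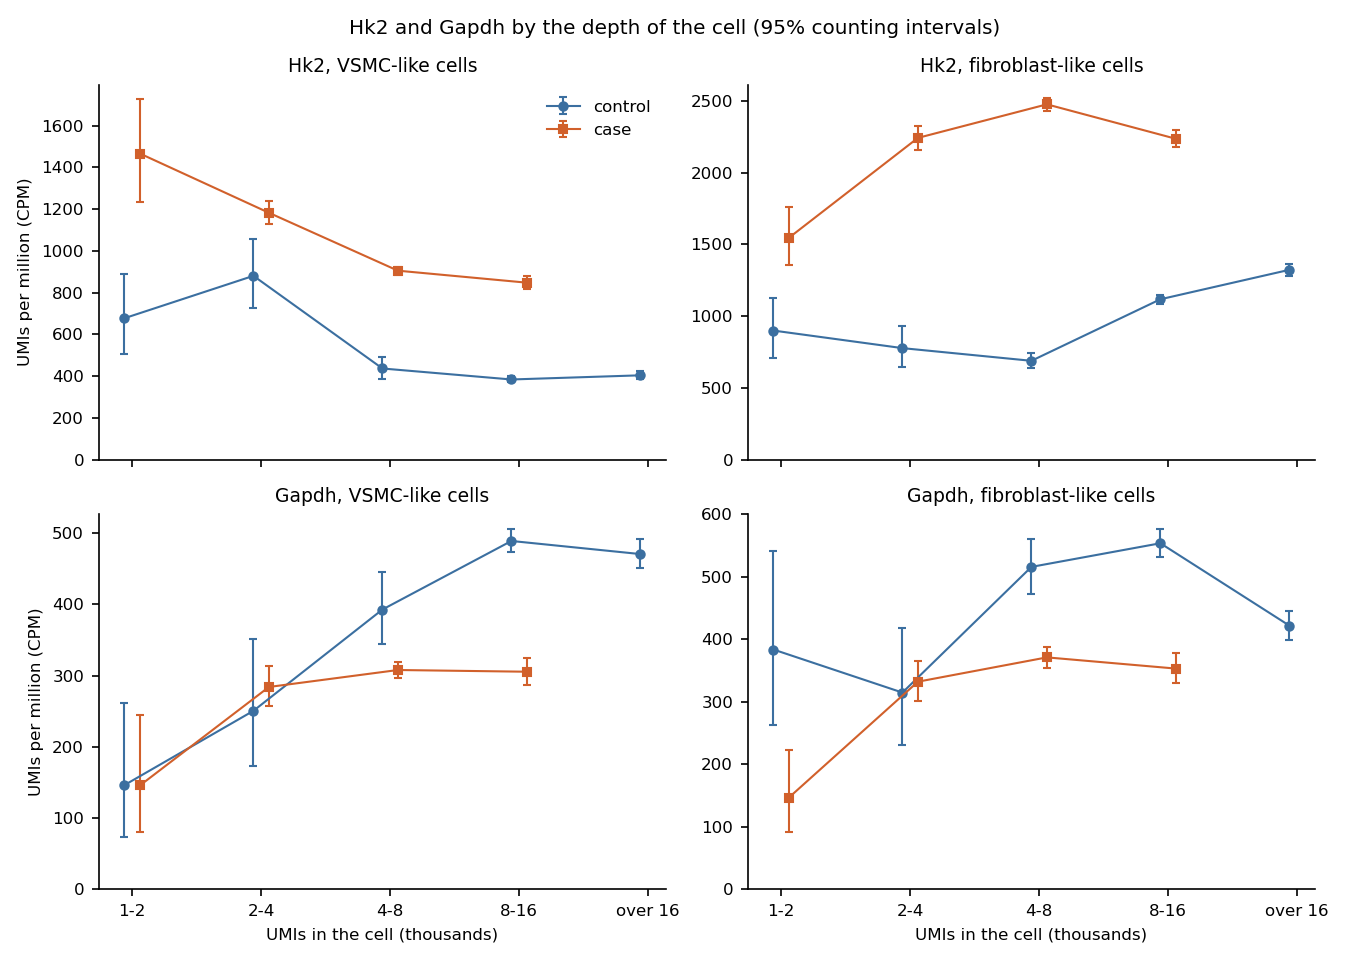
Level (CPM, with 95% counting intervals) of Hk2 (top) and Gapdh (bottom) against the number of UMIs in the cell, for VSMC-like (left) and fibroblast-like (right) cells; points on fewer than 20 cells are left out. Case points (orange) lie above control points (blue) at every depth for Hk2, while for Gapdh the groups are close at 2000 to 4000 UMIs and the case group is lower in deeper cells and in fibroblast-like cells of 1000 to 2000 UMIs (384 and 147 CPM).

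Barcodes under 1000 UMIs, which were not used as cells, had 499.8 CPM (438 to 568) of Hk2 in the control and 2078 CPM (1934 to 2230) in the case library. These barcodes can hold free RNA, damaged cells or small cells. The case level there was above that of every class except fibroblast-like cells. ECs, the lowest of the main classes, had 131 CPM in the control and 397 CPM in the case group. Other members differed between the libraries in these barcodes too. Gapdh had 292 and 88.9 CPM, Pgk1 144 and 59.3 CPM and Ldha 241 and 140 CPM, each lower in the case library. The intervals of Aldoa (349 and 245 CPM), Eno1 (80.5 and 64.7 CPM) and Slc2a1 (31.8 and 45.8 CPM) overlapped. The part of the RNA of these barcodes in the class values was not tested for any member.

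The Hk2 difference was also read within 14 clusters that were made without the members and had at least 20 cells of each library. Hk2 was higher in the case group in 13 clusters, past the fold in 11, and with an interval above 0 in 12, at a median log2 ratio of 1.02. In the VSMC-like cluster 5, which held 51.0% of control VSMC-like cells, it was 384 and 899 CPM. In the fibroblast-like cluster 4, which held 701 case cells and 56 control cells, it was 1473 and 2902 CPM. The exception was cluster 14, shallow cells without a class name, with 15 control and 4 case Hk2 UMIs. The makeup of the classes by cluster differed between the libraries.

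Among fibroblast-like cells Hk2 was highest in those rich in Gfpt2, which encodes an enzyme that takes fructose 6-phosphate from glycolysis into the hexosamine pathway. Cells with 5 or more Gfpt2 UMIs among 2000 had 1478 CPM of Hk2 in the control (181 cells) and 3109 CPM in the case group (441 cells). The other fibroblast-like cells had 978 CPM and 1984 CPM. Ldha followed the same order, with 803 against 276 CPM in the control and 484 against 216 CPM in the case group, and so did Slc2a1, with 64.1 against 30.7 CPM and 102 against 46.1 CPM. The intervals of the 2 kinds of cells did not overlap for any of these 3 genes in either group. Without cluster 12, which is high in Ldha, the Ldha levels were 378 against 234 CPM in the control and 404.5 against 215 CPM in the case group. Gfpt2-rich cells were deeper, with a median of 15352 against 10086 UMIs in the control group. Cells with Pi16, a gene of adventitial fibroblasts, had 2076 CPM of Hk2 in the case group against 2626 CPM in cells without it.

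Phosphofructokinase catalyses the step that commits sugar to glycolysis, and its platelet isoform Pfkp was sparse. VSMC-like cells had 11.04 and 8.90 CPM, below the mean of 10 CPM set for a comparison, and fibroblast-like cells 14.5 and 18.9 CPM with a log2 ratio of 0.38 (0.04 to 0.73). In the case group it was 2.12-fold higher in fibroblast-like than in VSMC-like cells. Aldolase A (Aldoa), which splits fructose 1,6-bisphosphate, showed nearly equal levels in VSMC-like cells (450.1 and 470.5 CPM) and in fibroblast-like cells (315 and 321 CPM). ECs had 320 and 463 CPM of it, a log2 ratio of 0.53 (0.27 to 0.80). They lay in different clusters, since cluster 11 held 12.5% of control and 45.8% of case ECs. Within the endothelial cluster 9 the log2 ratio was 0.21 (-0.08 to 0.51), and case ECs with Plvap or Emcn had 569 CPM of Aldoa against 421 CPM in the others. The part of this makeup was not tested. Schwann-like cells had 342 and 618 CPM of Aldoa, past the fold at a log2 ratio of 0.85 (0.30 to 1.44), and both-marker cells 335 and 439 CPM, a log2 ratio of 0.39 (0.19 to 0.59). Aldoa was lower in macrophage-like cells, with 1344 and 1134 CPM and a log2 ratio of -0.25 (-0.39 to -0.10). Macrophage-like cells had the highest Aldoa level in both libraries, 2.99-fold and 2.41-fold that of VSMC-like cells. Tpi1, the triose phosphate isomerase, was barely captured, with at most 39 UMIs in a class, and no comparison was made.

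Gapdh, which oxidises glyceraldehyde 3-phosphate, was lower in the case group beyond counting error in 3 of 6 classes. VSMC-like cells had 473 CPM (461 to 486) in the control and 304 CPM (295 to 313) in the case group, 1.56-fold lower. Fibroblast-like cells had 496 and 357 CPM, 1.39-fold lower, and macrophage-like cells 670.1 and 365 CPM, 1.83-fold lower. The macrophage log2 ratio of -0.88 was -0.55 and short of the fold with equal weight on the 3 depth bins, the lowest of which held very few control cells. In ECs the levels were 430.0 and 375 CPM, and the interval of the log2 ratio (-0.44 to 0.05) included 0. It also did in both-marker cells at -0.19 (-0.41 to 0.03) and in Schwann-like cells at -0.60 (-1.34 to 0.15), the latter past the fold. Within the 14 clusters Gapdh had an interval below 0 in 12. Its level depended on depth: in VSMC-like cells of 2000 to 4000 UMIs the levels were 250.4 and 284 CPM, and in cells of 8000 to 16000 UMIs 489 and 305 CPM. With equal weight on the 3 depth bins the VSMC log2 ratio of -0.64 became -0.34, which is not past the fold. Gapdh is often used as a reference gene.

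Pgk1, which makes the first ATP of the pathway, had 229 CPM (221 to 237) in control and 155 CPM (148 to 162) in case VSMC-like cells, a log2 ratio of -0.56 (-0.64 to -0.48) just short of the fold. Macrophage-like cells had 177 and 106 CPM on 89 and 82 UMIs, 1.68-fold lower in the case group, and with equal weight on the 3 depth bins this log2 ratio went from -0.75 to 0.16. Pgk1 was the member most biased to VSMC-like cells, where it was 2.51-fold the level of fibroblast-like cells in the control and 1.95-fold in the case group. Enolase 1 (Eno1) had 121 and 130 CPM in VSMC-like and 97.5 and 97.9 CPM in fibroblast-like cells. Its log2 ratio was 0.57 (0.05 to 1.12) in ECs, though -0.02 within cluster 9, and 0.45 (0.08 to 0.83) in macrophage-like cells, short of the fold in both.

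Ldha had 297 CPM (288 to 307) in control and 234 CPM (226 to 242) in case VSMC-like cells, and 438 and 309 CPM in fibroblast-like cells. The log2 ratios were -0.35 (-0.42 to -0.28) and -0.50 (-0.58 to -0.43). A few cells carried the fibroblast value. The 61 control cells of cluster 12, led by the genes Trh, Dact2 and Cd55, held 44.6% of the Ldha UMIs of the class, and the level in this cluster was 1944 CPM in the control and 750.3 CPM in the case group. Without it fibroblast-like cells had 270.0 CPM (259 to 282) in the control and 273 CPM (261 to 284) in the case group, a log2 ratio of 0.015. With equal weight on the 3 depth bins the log2 ratio was 0.01 in all fibroblast-like cells and -0.17 in VSMC-like cells. Schwann-like cells, which are known to release lactate to axons, had 1427 CPM (1205 to 1678) in the control and 1791 CPM (1612 to 1985) in the case group. These were the highest Ldha levels of any class, with intervals above those of the other 5 classes.

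**Figure D4:**
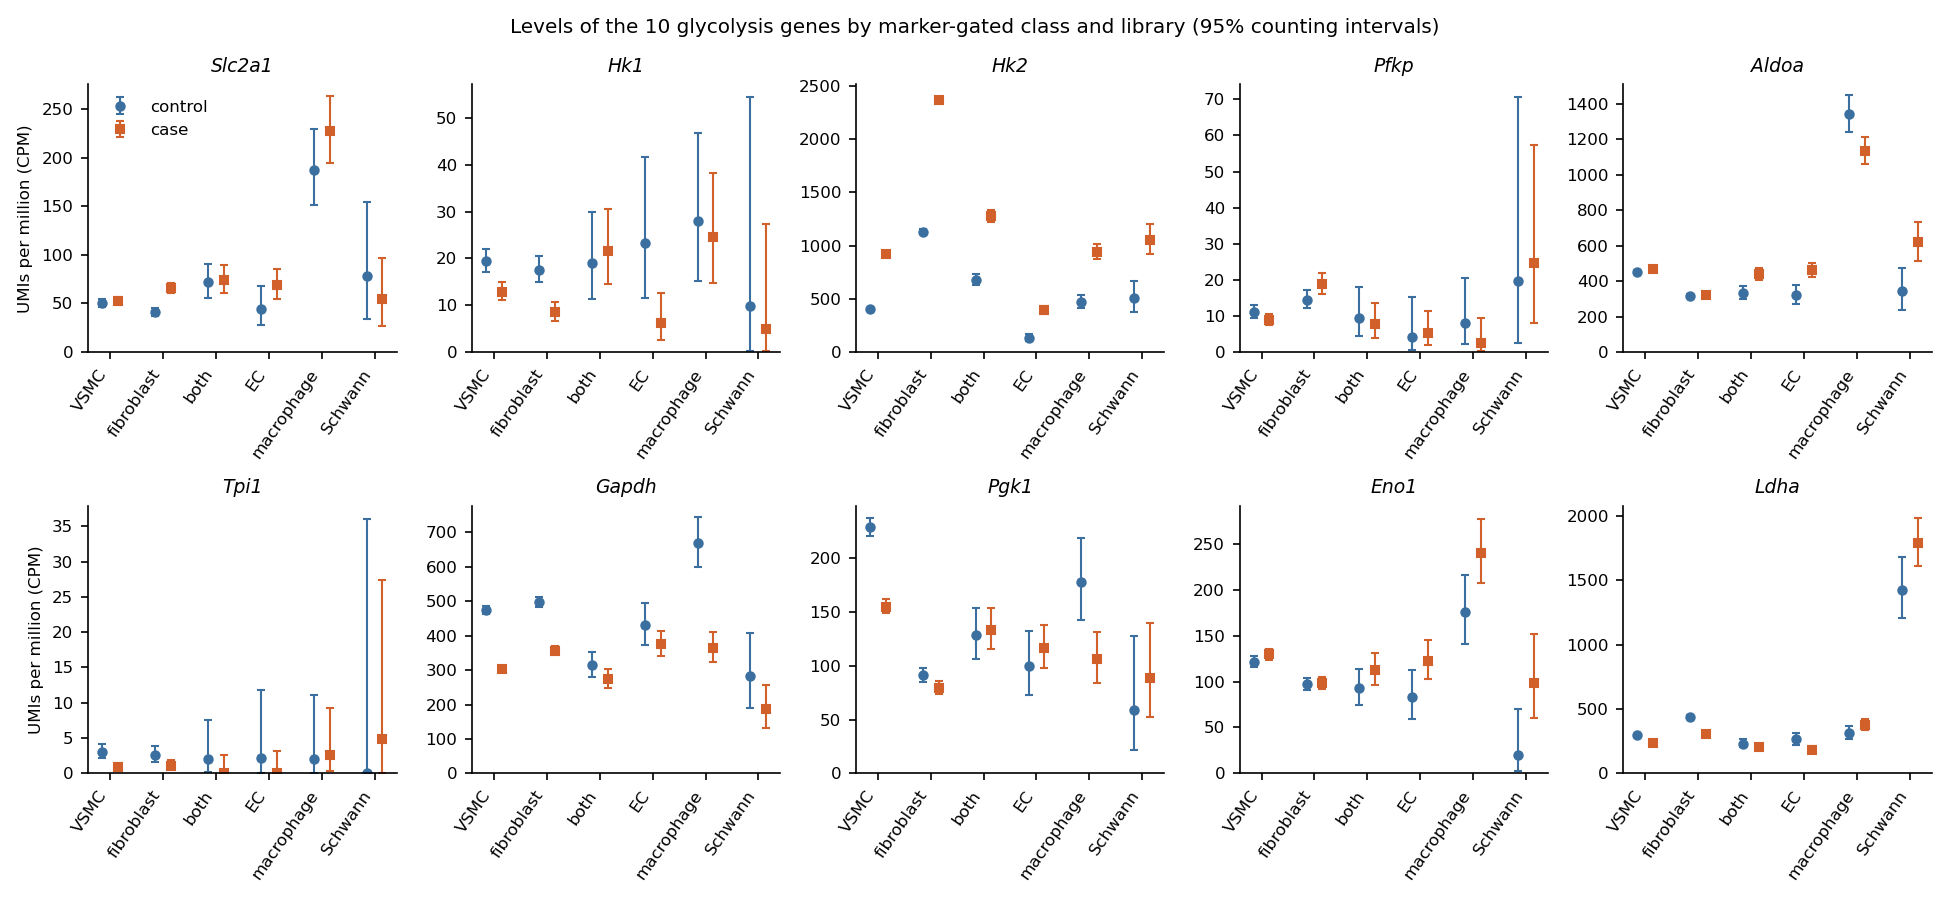
Level of each member (CPM, linear axis from 0, with 95% counting intervals) in 6 classes of the control (blue circles) and case (orange squares) library. Slc2a1, Aldoa and Eno1 peak in macrophage-like cells, Hk2 in fibroblast-like cells and Ldha in Schwann-like cells.

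Counted over members, 8 of 10 were in the range of comparison in VSMC-like cells, where Hk2 was higher and Hk1 and Gapdh were lower by the fold. Of all genes compared there, 5.59% were higher and 15.3% lower by the fold. In fibroblast-like cells 9 were in range, with Hk2 and Slc2a1 higher and Hk1 lower (6.55% of all genes were higher and 13.2% lower). In ECs 7 were in range, with Hk2 and Slc2a1 higher and none lower (18.2% of all genes were higher and 25.5% lower). In macrophage-like cells 8 were in range, with Hk2 higher and Gapdh and Pgk1 lower (17.1% of all genes were higher and 14.3% lower). The median log2 ratio of the members was -0.15 in VSMC-like cells beside -0.14 for all genes, 0.01 beside -0.08 in fibroblast-like cells, 0.53 beside -0.11 in ECs and 0.03 beside 0.01 in macrophage-like cells. In both-marker cells 8 were in range, with Hk2 higher and none lower (10.9% of all genes were higher and 18.2% lower). Their median was 0.12 beside -0.11. In Schwann-like cells 4 were in range, with Hk2 and Aldoa higher and Gapdh lower (29.6% of all genes were higher and 21.5% lower). Their median was 0.59 beside 0.05.

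The summed level of the members was read with and without Hk2. The 10 members together had 2055 CPM in control and 2289 CPM in case VSMC-like cells, and 2646 and 3626 CPM in fibroblast-like cells. Without Hk2 the sums were 1655 and 1368 CPM in VSMC-like cells and 1514 and 1258 CPM in fibroblast-like cells, lower in the case group. Fibroblast-like Ldha, with 438 and 309 CPM, had 270.0 and 273 CPM once cluster 12 was left out. Gapdh stayed lower there, with 486 and 356 CPM. The VSMC log2 ratios of Gapdh, Pgk1 and Ldha were -0.64, -0.56 and -0.35. Equal weight on the 3 depth bins brought them to -0.34, -0.17 and -0.17. In the bin from 2000 UMIs, with 45 control cells, they were 0.18, 0.50 and 0.04. From 4000 UMIs they were -0.35, -0.21 and -0.06. In the bin from 8000 UMIs, with 598 control cells, they were -0.68, -0.53 and -0.45. The sums were not read at matched depth. Hk2 made up 19.5% of the members' UMIs in control and 40.2% in case VSMC-like cells, and 42.8% and 65.3% in fibroblast-like cells. The share in ECs was 9.37% and 22.8%. Several of the other members have many pseudogenes, which makes their counts uncertain, while Hk2 has none named in RefSeq. The size of these shares is therefore uncertain. In Schwann-like cells the sum without Hk2 was higher in the case group, with 2238 and 2871 CPM.

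**Figure D5:**
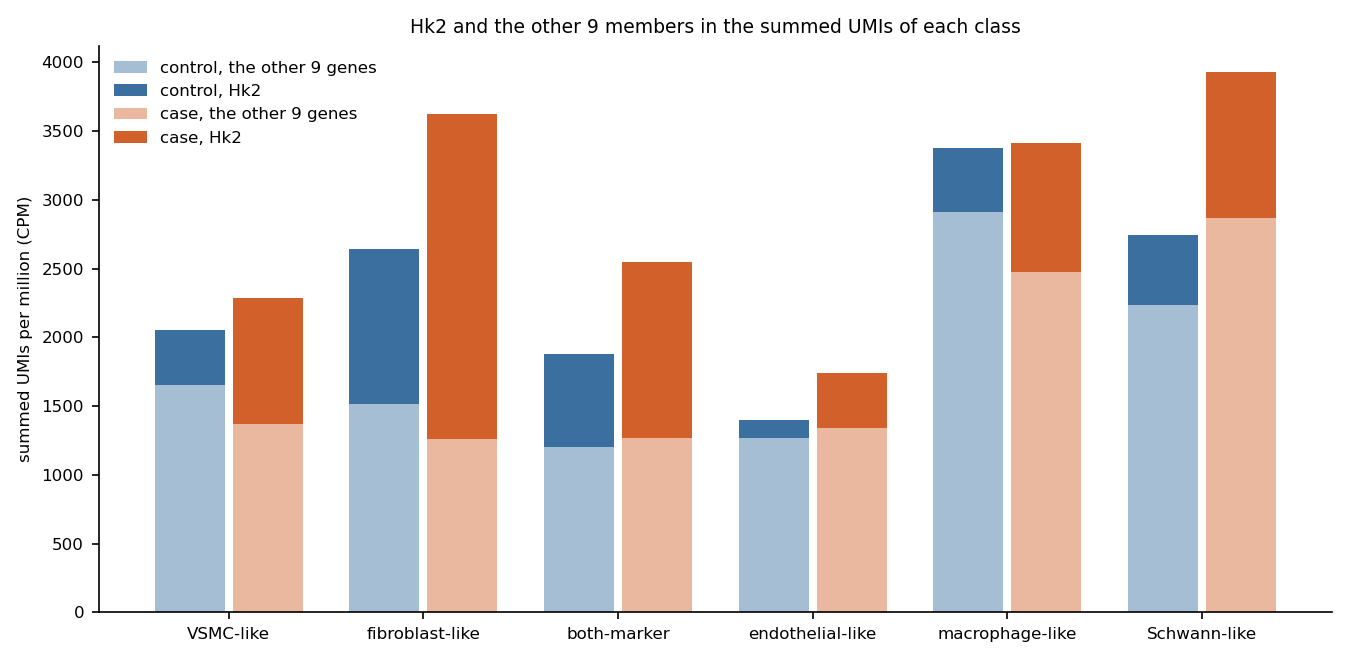
Summed CPM of the 10 members by class and library, split into Hk2 (dark) and the other 9 genes (light). The dark part is larger in the case (orange) than in the control (blue) library in every class, and the light part is smaller in VSMC-like (1655 to 1368), fibroblast-like (1514 to 1258) and macrophage-like cells (2910 to 2477).

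Fibroblast-like cells were compared with VSMC-like cells within each library, where handling is shared. Their depth differed, with medians of 10670 and 12619 UMIs in the control and 5080 and 5508 in the case group. Hk2 was 2.83-fold higher in fibroblast-like cells of the control and 2.57-fold in those of the case group. In the control group Hk2 was the 1 member of 9 in range that was higher by the fold (20.6% of all genes) and Pgk1 the 1 that was lower (32.9%). In the case group Hk2 and Pfkp were higher (20.1% of all genes) and Hk1 and Pgk1 lower (28.6%). The Hk1 log2 ratio of -0.60 (-1.01 to -0.21) was past the fold by a narrow margin, and in 13 of 15 other settings. After thinning of the cells the Hk1 log2 ratio was -0.037, short of the fold and outside its counting interval. Ldha was 1.47-fold and 1.32-fold higher in fibroblast-like cells, but without cluster 12 its control log2 ratio of 0.56 became -0.14 and its case one of 0.40 became 0.22. Aldoa was 1.43-fold and 1.47-fold lower. It was past the fold in the control only without cluster 12 (-0.59), and in the case group in 5 of 15 other settings. With equal weight on the 3 depth bins the control log2 ratio of Hk2 was 0.60.

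Levels of the members across 11 sums of class and library with at least 20 cells did not follow a common pattern. The median correlation of log2 levels between members was 0.10 over 45 pairs, and 7 pairs were above 0.5. Aldoa and Eno1 (0.87), Slc2a1 and Eno1 (0.87) and Slc2a1 and Aldoa (0.86) were the closest, and all 3 genes peaked in macrophage-like cells. The genes most like the mean of the members were Slc25a5 (0.96), Vapa (0.95), Sdc4 (0.92), Gabarap (0.91) and Eif4g2 (0.91), of 1426 genes compared. Slc25a5 encodes a mitochondrial carrier that exchanges ADP for ATP. Sums of a library share its depth, so these values are a description.

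Other genes of the pathway were read from lists of transport, further steps and isoforms, regulators, gluconeogenesis and hypoxia. Their counts are to be read beside the shares of all genes, 5.59% higher and 15.3% lower by the fold in VSMC-like cells and 6.55% and 13.2% in fibroblast-like cells. In VSMC-like cells 3 of 6 transport genes were in range and 1, the insulin-regulated glucose transporter Slc2a4 of muscle, was past the fold, with 63.9 CPM in the control and 42.0 CPM in the case group. Of 9 isoform genes in range, 3 were lower by the fold and 0 higher. These were the liver phosphofructokinase Pfkl (21.1 and 13.4 CPM), the muscle enolase Eno3 (17.7 and 8.76 CPM) and the pyruvate kinase Pkm (21.4 and 12.1 CPM). Skeletal muscle also uses Eno3 and Slc2a4. The summed level of its markers in VSMC-like cells was 70.6 and 37.6 CPM over the 4 of 6 listed genes in the files. Most of it was Acta1 (52.8 and 25.4 CPM), which was lower by the fold, as was Ckm (13.8 and 8.90 CPM). Tnnt3 (3.31 and 3.11 CPM) and Mylpf (0.63 and 0.14 CPM) were below the range of comparison. The part of these markers was not tested.

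In fibroblast-like cells 1 of 5 isoform genes in range, the ADP-dependent glucokinase Adpgk, was lower (19.9 and 13.2 CPM). Of 4 regulators in range, Pdhb, a subunit of pyruvate dehydrogenase, was higher by the fold (46.6 and 72.6 CPM), and of 2 gluconeogenesis genes Pck2, the mitochondrial PEP carboxykinase, was lower (19.8 and 12.9 CPM). No regulator and no gluconeogenesis gene was past the fold in VSMC-like cells, of 5 and 2 in range.

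In the hypoxia list 2 genes were higher by the fold in both classes. Hif1a, the oxygen-regulated subunit of hypoxia-inducible factor, had 58.1 and 96.0 CPM in VSMC-like cells and 131 and 235 CPM in fibroblast-like cells. Epas1, its relative HIF-2α, had 49.8 and 76.7 CPM in VSMC-like and 60.7 and 123 CPM in fibroblast-like cells. They were 2 of 13 genes in range in VSMC-like and 2 of 12 in fibroblast-like cells. The known target Ankrd37 was lower in VSMC-like cells (89.8 and 49.7 CPM), and Egln2, a prolyl hydroxylase that marks HIF for breakdown, was lower in fibroblast-like cells (39.0 and 22.1 CPM). The median log2 ratio of the list was -0.16 in VSMC-like and 0.12 in fibroblast-like cells. HIF is regulated mainly at the protein level, which was not measured.

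Genes of dissociation stress were read beside these values. Their summed level was 12758 CPM in control and 13181 CPM in case VSMC-like cells, with 0 of 8 genes past the fold, and 15017 and 17623 CPM in fibroblast-like cells, where Junb was lower (1055 and 609.9 CPM). In ECs the sum was 22100 and 14927 CPM and in macrophage-like cells 5525 and 3521 CPM. In Schwann-like cells it was 23047 and 9188 CPM, with 7 of 8 genes lower by the fold. Its part in the EC, macrophage and Schwann values of the members was not tested. Red cell genes in VSMC-like cells had 8.36 and 30.5 CPM, endothelial markers 3.00 and 6.01 CPM and macrophage markers 6.47 and 11.4 CPM.

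Several members have many processed copies in the genome. RefSeq names 81 pseudogenes of Gapdh, 31 of Eno1, 30 of Ldha, 9 of Aldoa, 8 of Pgk1 and 3 of Tpi1, and none of Hk1, Hk2, Slc2a1 and Pfkp. Reads that match several places are dropped by common counting rules, so the levels of these genes are uncertain and their order between genes is not given. The summed levels of the members and the Hk2 shares carry the same uncertainty. Of these copies only 1 of Eno1 was in the table, with 4 UMIs in the case library.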

How the data were processed

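Single-cell RNA was measured in 1 control and 1 case library of pooled rat carotid arteries. Per the file headers, Cell Ranger 3.1.0 made the raw UMI counts the authors deposited. The processing notes name the genome build Rnor_6.0. Barcodes were assigned to libraries by suffix, from the cell numbers the methods give. They were kept at up to 20% mitochondrial UMIs, within 2 SD of the library mean of log10 UMIs and genes, within 3 robust SD of a linear fit of genes on UMIs, and from 1000 UMIs. VSMC-like and fibroblast-like cells needed 0.5% of UMIs in their markers and a fibroblast share of the marker UMIs of at most 33.3% or at least 66.7%. Other classes needed 3 distinct markers. Doublets were scored and left in. UMIs were summed per class. A gene was compared with at least 30 UMIs over both sums and a mean of 10 CPM. CPM intervals are exact Poisson, ratio intervals exact conditional binomial and shares Clopper-Pearson, all at 95% and for counting error only.

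The members, the gene lists and the rules were chosen with earlier results of these data known. All 10 members are named, and of the pathway lists those past the fold in VSMC-like or fibroblast-like cells. Clusters came from Leiden at resolution 0.8 on 2000 variable genes without the members, 30 components and 20 neighbours. Python 3.11.15, scanpy 1.11.5, R 4.3.3 and edgeR 4.0.16 (TMM factors only) were used, and the steps were tested on simulated data. Depth was 23667626 kept UMIs in the control and 27018221 in the case library. With 1 library per group no count model was fitted.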

Additional observations from a re-analysis of the deposited data

Results flagged for a closer look

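Aldoa was higher in the case group in 4 classes and lower in macrophage-like cells, each beyond counting error. Its log2 ratio of case over control was 0.064 in VSMC-like, 0.53 in endothelial-like, 0.39 in both-marker and 0.85 in Schwann-like cells, and -0.25 in macrophage-like cells. The difference between these classes was not tested, since each rests on 1 library per group. Summed dissociation stress genes were lower in the case group in ECs (22100 and 14927 CPM), macrophage-like (5525 and 3521 CPM) and Schwann-like cells (23047 and 9188 CPM). They were higher in VSMC-like (12758 and 13181 CPM) and both-marker cells (10076 and 13033 CPM). Their part in the Aldoa values was not tested.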

How the results depend on the processing

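Of 750 values of single members over 15 alternatives, 662 lay within the counting interval of the reported value, and 3 called values changed sign. Hk2 was higher in the case group and past the fold under all 15 alternatives in VSMC-like cells, fibroblast-like cells and ECs, and under 14 in macrophage-like cells, where equal weight of 3 depth bins gave a log2 ratio of 0.40. Of the alternatives, 4 were chosen after seeing the data: the depth bins, leaving out the highest Scrublet scores, leaving out shared barcode sequences, and leaving out cluster 12. The sign changes were Slc2a1 in ECs (-0.26 when thinned, -0.036 with the depth bins) and Pgk1 in macrophage-like cells (0.16 with the depth bins). In macrophage-like cells the lowest of these bins held very few control cells.

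Of 180 counts of members past the fold, 158 stayed within 1.5 times the reported count. In VSMC-like cells the count of lower members was 1 with a mitochondrial limit of 10%, with Leiden clusters, without mitochondrial and ribosomal genes in the totals and without the highest Scrublet scores, and 0 with TMM factors, with equal weight per cell and with the depth bins. In ECs 1 member was lower with Leiden clusters, stricter gates, thinning, all genes with at least 1 UMI and without the highest Scrublet scores, and 4 were higher with TMM factors and without mitochondrial and ribosomal genes. In fibroblast-like cells 1 was higher when thinned and 2 were lower with all genes. In macrophage-like cells 1 was lower when thinned, and with the depth bins 2 were higher and 0 lower. For fibroblast-like against VSMC-like cells TMM factors gave 2 higher in the control and 1 lower in the case library, and leaving out cluster 12 gave 2 lower in the control. TMM moved every log2 ratio by 0.12 in VSMC-like cells, 0.24 in ECs and 0.14 between classes in the control library.

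Depth limits Hk1, Pfkp and Tpi1, and all members in ECs, macrophage-like and Schwann-like cells. Scrublet called 19 control cells and 1 case cell and is taken not to have worked. No paired analysis was possible because each group is 1 library, although left and right arteries came from the same rats.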

Other observations

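VSMC-like cells with a Notch1 UMI after thinning, a receptor that marks 1 of the smooth muscle clusters, had levels of Hk2 near those of the other VSMC-like cells. The values were 412 CPM (382 to 444) against 396 CPM (385 to 408) in the control and 949.6 CPM (904 to 997) against 913 CPM (896 to 930) in the case group, with overlapping intervals. Slc2a1 was higher in the Notch1-positive cells, with 77.7 CPM (65.0 to 92.1) against 46.2 CPM (42.3 to 50.4) in the control and 66.7 CPM (54.99 to 80.1) against 50.5 CPM (46.6 to 54.6) in the case group.

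Fibroblast-like cells with Postn, a matricellular gene of wound fibroblasts, numbered 12 in the control and 126 in the case group. In the case group their Hk2 level was 2198 CPM (2101 to 2298) against 2403 CPM (2368 to 2438) in the cells without Postn, and their Gapdh level was 262 CPM (230 to 298) against 371 CPM (358 to 385).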
